A study of Mus musculus with 9 samples.

Results

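HOXA13 and HOXD13 occupancy was examined around Lhx2, Lhx9 and Lmx1b, 3 genes of the LIM homeobox family, in CUT&RUN peak lists from mouse distal forelimb. CUT&RUN tethers micrococcal nuclease to an antibody, so that reads pile up where the bound protein sat. A peak interval marks a stretch where reads piled up above the local background. Peaks were called without a control, and the paper describes a peak of its own as likely non-specific nuclease signal. An interval alone is therefore not proof of bound protein. Intervals were kept when their main summit lay in the gene body or within 150 kb on either side, on mm10 with GENCODE gene models. Overlapping intervals of the 9 lists were joined into sites, which gave 171 sites of 206225 in all: 63 around Lhx2, 41 around Lhx9 and 67 around Lmx1b. A distance is given from the outermost annotated start site of the gene, and upstream and downstream follow its direction of transcription.

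There were 4 groups. Wild-type (wt) forelimbs at E12.5 gave 3 HOXA13 and 3 HOXD13 libraries. The 542 line carries the digit enhancer II1 with an HBB promoter and LacZ at a new position in T-DOM, a regulatory domain beside the HoxD cluster, and 3 libraries came from its homozygous embryos. Of these, 2 were HOXA13 libraries of the E12.5 stage, and a single one was for HOXD13, with E11.5 in its label. Within the 542 line antibody and labelled stage therefore cannot be told apart. For HOXD13, genotype and labelled stage cannot be told apart either. All embryos were of B6CBAF1 background, each library pooled cells of several embryos, and line 542 is 1 founder line. The wt reads were mapped on mm10 and the 542 reads on the mutant genome, so genotype and mapping genome cannot be told apart. The third wt HOXD13 library is described as a new analysis of an earlier one, and the third library of both wt antibodies and the 542 HOXD13 library had other read lengths than the rest. The lists held 23939 to 117719 intervals at recovered depths of 36.9 to 65.5 M read ends. RNA was not measured, so no expression level belongs to these values.

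LIM homeobox proteins combine a DNA-binding homeodomain with a pair of LIM domains, through which they bind the cofactor LDB1. LMX1B is made in dorsal limb mesenchyme, downstream of the ectodermal signal WNT7A, and gives the limb its dorsal identity. LHX2 and LHX9 act in the distal mesenchyme beneath the apical ridge, where they overlap in function with LMX1B in limb outgrowth. HOXA13 and HOXD13 are homeodomain factors of the developing digits.

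The windows shown hold the summits of the sites that, among those called in all 9 lists, had the highest fold enrichments of each gene, with 4 for Lmx1b. Each covers 50 bases either side of the main summit over all lists, on the plus strand of mm10. Capitals mark a match to the HOX13 consensus CYNRTAAA on either strand, in which Y stands for a pyrimidine and R for a purine.
Lmx1b 60.9 kb upstream, chr2:33701380-33701480: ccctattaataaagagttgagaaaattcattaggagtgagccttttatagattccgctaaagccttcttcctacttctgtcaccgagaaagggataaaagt
Lmx1b 24.5 kb downstream, chr2:33615940-33616040: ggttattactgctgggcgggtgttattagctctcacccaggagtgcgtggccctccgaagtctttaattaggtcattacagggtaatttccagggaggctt
Lmx1b 114.7 kb downstream, chr2:33525778-33525878: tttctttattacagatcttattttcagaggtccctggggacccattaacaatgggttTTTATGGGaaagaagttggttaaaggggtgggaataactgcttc
Lmx1b 124.5 kb downstream, chr2:33515984-33516084: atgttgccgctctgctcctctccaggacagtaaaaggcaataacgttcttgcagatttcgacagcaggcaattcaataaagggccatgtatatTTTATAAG
Lhx9 63.0 kb downstream, chr1:138785517-138785617: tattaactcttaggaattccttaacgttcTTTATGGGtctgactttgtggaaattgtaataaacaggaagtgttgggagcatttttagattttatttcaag
Lhx2 87.7 kb upstream, chr2:38251564-38251664: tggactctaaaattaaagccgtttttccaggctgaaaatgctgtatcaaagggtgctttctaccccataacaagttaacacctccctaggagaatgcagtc
The consensus was found in the windows 114.7 and 124.5 kb downstream of Lmx1b and 63.0 kb downstream of Lhx9, and these letters were not found in the others.

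Lmx1b lies at chr2:33560965-33640511 on the minus strand and had no interval at its single annotated start site. No list of the 9 placed an interval within 1000 bp of it, whereas 67.6% of 20445 protein-coding genes had a promoter interval in at least 1 list. The nearest site upstream was 5.8 kb away, in an exon of the antisense transcript C130021I20Rik, and was called in 7 lists. The nearest downstream was 3.1 kb into the gene and was called in the 542 HOXD13 list alone. HOX13 intervals around Lmx1b were thus in introns (10 sites), in an exon (1 site) or distal (56 sites).

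Of these 67 sites, 11 were called in all 9 lists, or 16.4%, against 6.41% of 193935 merged sites over the genome. With sites joined by main summits within 200 bp these shares were 7.53% (7 of 93 sites) and 3.21%, and with intervals under a fold enrichment of 5 left out they were 9.52% (2 of 21 sites) and 3.43%. Lhx2 had 1 such site of 63 and Lhx9 had 2 of 41, which are 1.59% and 4.88%. At the other end, 28 sites of Lmx1b, 28 of Lhx2 and 16 of Lhx9 were called in exactly 1 list, against 50.0% of all sites. Of those 72 sites 26 came from the 542 HOXD13 list, the longest. A landscape with at least 1 site in all 9 lists was common, found for 77.8% of protein-coding genes, and all 3 members had one.

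**Figure D1:**
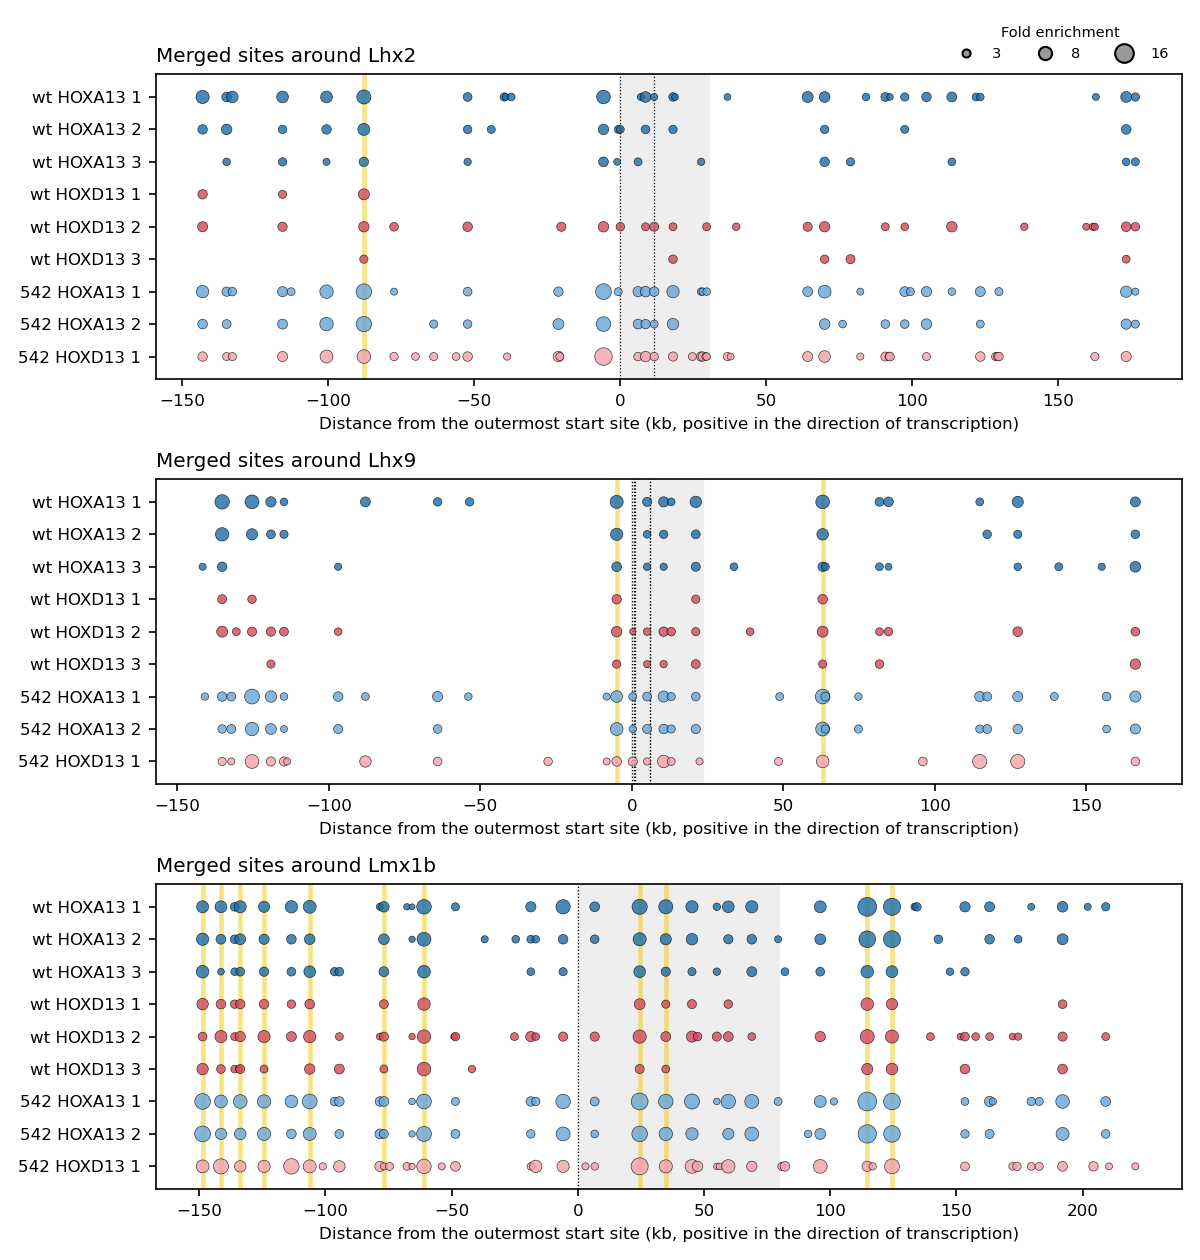
Merged sites around Lhx2, Lhx9 and Lmx1b, with distance from the outermost start site (kb) on the x axis and 1 row for each library. Each point is a site with an interval in that list, its area rises with fold enrichment, grey shading is the gene body, dotted lines are annotated start sites and yellow lines mark the sites called in all 9 lists (1, 2 and 11).

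**Figure D2:**
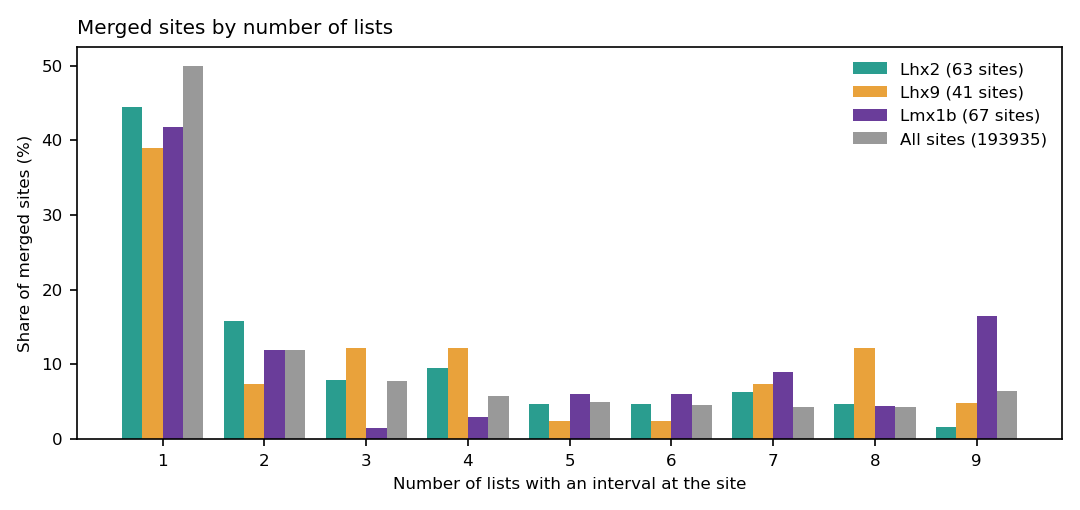
Share of merged sites (%) by the number of lists with an interval, for each gene and for all 193935 sites. Lmx1b has 16.4% of its sites in all 9 lists and all sites together have 6.41%.

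The site 60.9 kb upstream of Lmx1b, intergenic at chr2:33700407-33702176, had the highest pileup of all member sites in each of the 9 libraries. At its highest point 680, 297 and 236 read ends were stacked in the wt HOXA13 libraries (replicates 1, 2 and 3) and 98, 334 and 200 in the wt HOXD13 libraries. The 542 libraries had 990 and 544 read ends for HOXA13 and 1284 for HOXD13. Exact Poisson 95% intervals, which cover counting error only, were 630 to 733 for the pileup of 680 and 79.6 to 119 for the lowest. They treat read ends as independent. Both ends of a pair and duplicates were counted, so they may be too narrow.

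Within its list that pileup ranked between 21st and 317th, so that only 0.0178% to 1.24% of intervals were at least as high in the 9 lists. Fold enrichment, which divides pileup by the local background, placed the same site lower, with 0.620% to 7.10% of intervals at least as high. Its fold enrichment was 9.80, 8.95 and 7.45 in wt HOXA13, 7.21, 8.34 and 8.60 in wt HOXD13, 9.94 and 10.3 in 542 HOXA13 and 9.64 in 542 HOXD13. The range over all 9 libraries, 7.21 to 10.3, was narrow, and the values of both wt antibodies overlapped. The local background there was 12.7 to 132 read ends, against 4.96 to 28.2 at the site 124.5 kb downstream, and the intervals were 1273 to 1770 bp wide. Without a control this background comes from the same reads as the pileup, which ran from 98 to 1284. The narrow range of fold enrichment is thus no measure of even occupancy. The comparison of both ranks was chosen after the values were seen.

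A pair of strong sites lay past the 3′ end of Lmx1b, outside any gene. The one 114.7 kb downstream of the start site (chr2:33525150-33526373, 35.1 kb past the gene end) had fold enrichments of 16.3, 12.9 and 7.33 in wt HOXA13 and 7.30, 9.08 and 5.85 in wt HOXD13. It reached 16.3 and 15.5 in 542 HOXA13 but 5.00 in the single 542 HOXD13 library, which is labelled E11.5, its lowest value. The wt HOXA13 group averaged 12.2 ± 4.54 (SD, n = 3) and the wt HOXD13 group 7.41 ± 1.62 (SD, n = 3), and 2 of the 3 HOXA13 libraries lay above all HOXD13 libraries.

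The other, 124.5 kb downstream (chr2:33515283-33516707, 44.9 kb past the gene end), had 13.5, 13.3 and 6.42 in wt HOXA13 and 5.87, 7.91 and 6.17 in wt HOXD13. Its values were 12.8 and 12.6 in 542 HOXA13 and 10.1 in 542 HOXD13. At both sites the third wt HOXA13 library was the low one of its group and fell within the HOXD13 range. This was not particular to these sites. Over all its intervals that library had a median fold enrichment of 3.30, beside 3.76 and 3.65 in the first and second.

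Within the gene, the introns held 2 sites called in all 9 lists. The site 24.5 kb downstream (chr2:33615257-33616897) overlaps the start site of Gm38011, a gene model of unconfirmed status, and had fold enrichments of 10.5, 7.94 and 6.37 in wt HOXA13 and 5.45, 8.10 and 3.79 in wt HOXD13. It had 13.1 and 11.2 in the 542 HOXA13 libraries and 13.4 in the 542 HOXD13 library, values that lay above all wt values. The site 34.9 kb downstream had 9.11, 5.72 and 3.95 in wt HOXA13, 3.09, 4.53 and 2.86 in wt HOXD13, and 9.67, 8.31 and 7.93 in the 542 libraries. Its main summits in the 9 lists fell within 52 bp of each other, the tightest placement among the 14 sites called everywhere, whose median spread was 505.5 bp.

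Upstream, 5 of the 11 sites lay in introns of Mvb12b, a protein-coding gene farther upstream, which codes for a subunit of the ESCRT-I sorting complex. They were 106.2, 124.3, 133.7, 141.4 and 148.6 kb from the Lmx1b start, with median fold enrichments of 7.02, 5.74, 5.44, 5.82 and 6.91 over the 9 libraries. The remaining one, 76.8 kb upstream in an intron of the noncoding gene 9430024E24Rik, was the weakest, with a median of 3.80. Of these upstream sites those at 124.3, 141.4 and 76.8 kb are outside the rule for named sites and are given to complete the 11. They lie within other genes, and only distance assigns them to Lmx1b.

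One further site in Mvb12b, 135.9 kb upstream of Lmx1b, was called in all 6 wt lists and in none of the 542 lists. It was chosen after its values were seen. Only 0.0273% of merged sites had that pattern, and 0 sites of Lmx1b had it with sites joined by main summits within 200 bp or at a fold enrichment of at least 5. Its fold enrichments were low, from 2.72 to 3.54, and a neighbouring site 133.7 kb upstream was called in all 9 lists.

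**Figure D3:**
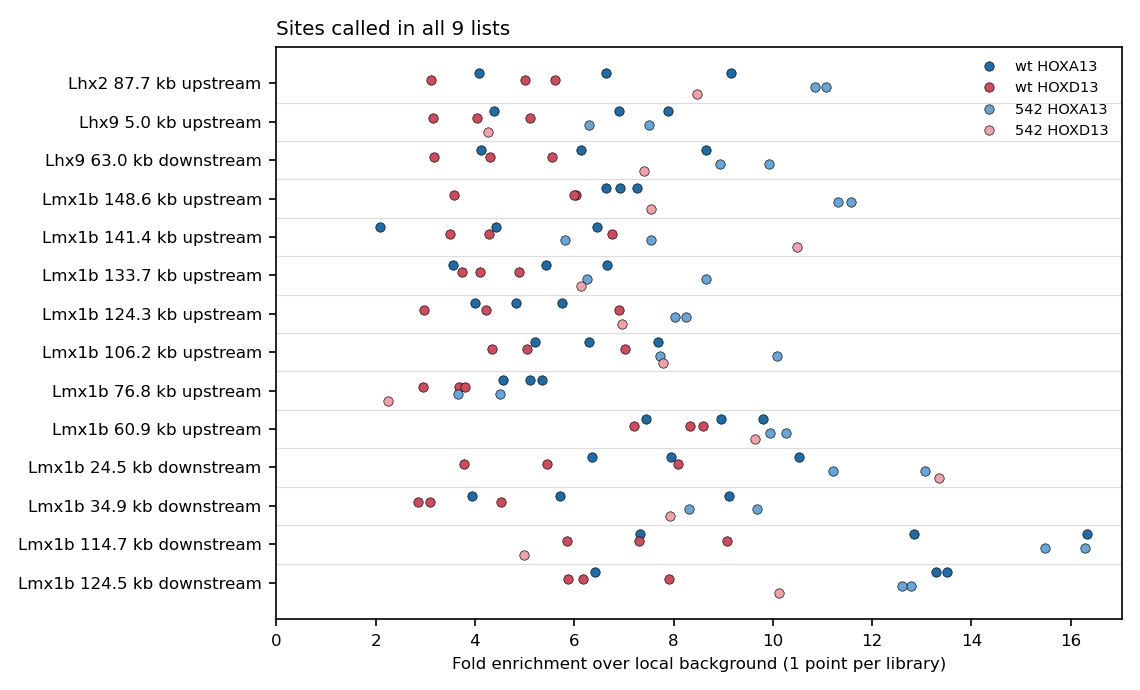
Fold enrichment (x axis) of the 14 sites called in all 9 lists, 1 point for each library, coloured by group. Points of the 542 HOXA13 libraries are often to the right of the wt points, and the site 60.9 kb upstream of Lmx1b spans 7.21 to 10.3.

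Lhx2 (chr2:38339281-38369733, plus strand) had promoter intervals, but weak ones. An interval lay within 1000 bp of one of its 2 start sites in 7 lists, all 3 wt HOXA13, 1 wt HOXD13 and the 3 from the 542 line. They fell into 4 sites, of which the one at the second start site, 11.7 kb downstream, was called in 5 lists with fold enrichments of 2.36 to 4.19. At the first start site no site was called in more than 2 lists. Since 20.7% of protein-coding genes had a promoter interval in all 6 wt lists, neither Lhx2 nor the other members, none of which had one, belonged to that class.

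By the median over the lists that called it, the site with the highest fold enrichment near Lhx2 (8.62) lay 5.6 kb upstream (chr2:38333186-38334081), outside any gene, and was missing from 2 wt HOXD13 lists. Its fold enrichments were 8.62, 5.07 and 4.43 in wt HOXA13, 5.05 in the second wt HOXD13 library, 11.49 and 9.79 in 542 HOXA13, and 14.1 in 542 HOXD13. In the 542 HOXD13 list only 0.439% of intervals were at least as high. The site is outside the rule for named sites and was chosen after its values were seen. Its median leaves out the 2 wt HOXD13 lists without a call there. The median at the site 87.7 kb upstream of Lhx2 (6.65) is over all 9 lists, with 5.61 and 3.13 in those 2. The medians are thus not over the same lists, and the order of these sites rests on that.

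The single Lhx2 site called in all 9 lists was 87.7 kb upstream (chr2:38251049-38252291), in an intron of Dennd1a, a gene for an endocytic Rab guanine nucleotide exchange factor. Its fold enrichments were 9.16, 6.65 and 4.09 in wt HOXA13, 5.61, 5.01 and 3.13 in wt HOXD13, 11.1 and 10.9 in 542 HOXA13 and 8.47 in 542 HOXD13. The 2 wt groups overlapped and the 542 HOXA13 values were above them. A further 2 sites in Dennd1a, 100.4 and 134.6 kb upstream, were called in all 3 wt HOXA13 lists and no wt HOXD13 list, a pattern of 0.897% of all sites. Both were called in the 542 lists too, with 7.64 and 3.04 in 542 HOXD13. No site of the 3 genes was called in all 3 wt HOXD13 lists and no wt HOXA13 list, which 0.0191% of all sites were.

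Lhx9 (chr1:138825186-138848577, minus strand) has 5 annotated start sites. The site over its inner ones, 5.1 kb downstream, was called in 8 lists with fold enrichments between 2.38 and 3.86, and the site at the outermost one was called in 4 lists, 1 wt HOXD13 and the 3 of the 542 line. The first wt HOXD13 list, the shortest, had neither.

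Its 2 sites called in all 9 lists were 63.0 kb downstream, outside any gene (chr1:138785193-138786058), and 5.0 kb upstream in an intron of 2310009B15Rik (chr1:138853073-138854844). The first had fold enrichments of 8.65, 6.13 and 4.12 in wt HOXA13, 4.29, 5.54 and 3.17 in wt HOXD13, 9.92 and 8.93 in 542 HOXA13 and 7.40 in 542 HOXD13. The second had 7.89, 6.91 and 4.39, then 4.05, 5.11 and 3.16, then 6.31 and 7.51, and 4.27 in the same order. At both sites the wt groups overlapped. By median the highest fold enrichment near Lhx9 was 125.3 kb upstream (chr1:138973403-138974461), in an intron of Dennd1b, which codes for another Rab exchange factor. It was called in 7 lists, with 8.80 and 5.81 in wt HOXA13 replicates 1 and 2, 3.32 and 3.92 in wt HOXD13 replicates 1 and 2, 10.2 and 8.38 in 542 HOXA13 and 8.87 in 542 HOXD13. Replicate 3 of neither wt antibody had an interval there. Its median is thus over 7 lists, whereas the median of 6.13 at the site 63.0 kb downstream is over all 9. A site in an exon of Lhx9, 21.1 kb downstream, was called in 8 lists, all 6 of the wt, with fold enrichments of 3.11 to 6.03. The sites 125.3 kb upstream and 21.1 kb downstream were chosen after their values were seen.

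The density of intervals was highest around Lmx1b among the members in most libraries. Around Lmx1b there were 36, 30 and 28 intervals in the wt HOXA13 lists, 17, 42 and 19 in wt HOXD13, 38 and 31 in 542 HOXA13 and 44 in 542 HOXD13. Lhx2 had 31, 18 and 15, then 3, 25 and 5, then 32 and 22, and 41. Lhx9 had 20, 14 and 18, then 6, 20 and 10, then 29 and 24, and 24.

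Per Mb of landscape Lmx1b was above both others in 8 of 9 libraries, the exception being Lhx2 in 542 HOXD13 with 124 against 116 intervals per Mb. Lhx2 came close in wt HOXA13 replicate 1 (93.8 against 94.8) and in 542 HOXA13 replicate 1 (96.8 against 100). In each library the density around Lmx1b was above that of 98.5% to 99.6% of protein-coding genes. For sites called in all 9 lists it had 29.0 per Mb, where the median gene had 6.17 and 99.2% of genes had fewer. Lhx2 ranged from above 38.6% of genes (wt HOXD13 replicate 1) to above 99.4% (542 HOXD13), and Lhx9 from 72.5% to 97.9%. Lhx2 was above Lhx9 in 5 libraries and below it in 4, so their order changed between libraries. These shares are a description without a test, and landscapes of neighbouring genes share sites.

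**Figure D4:**
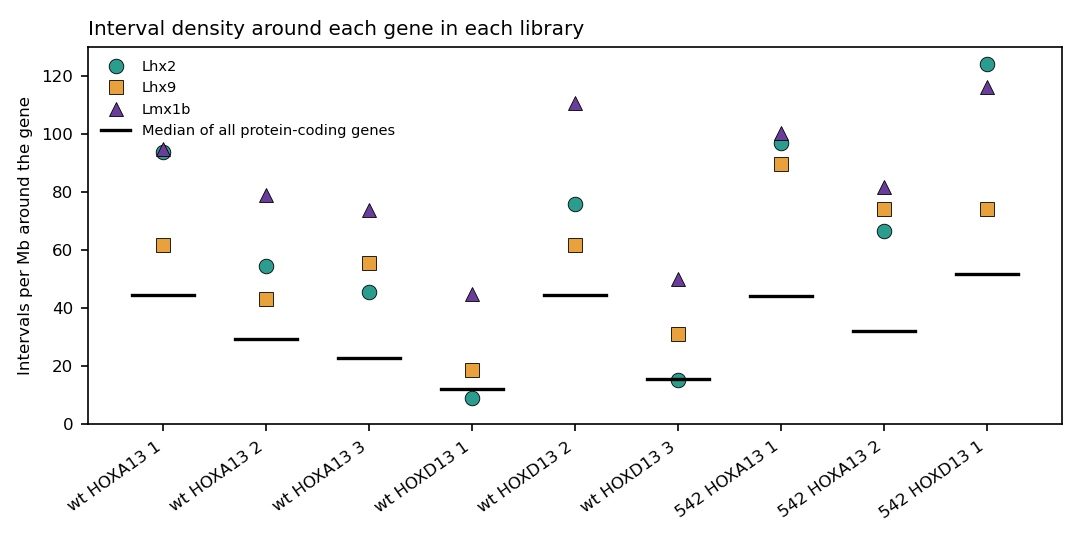
Intervals per Mb of the landscape (y axis) of Lhx2, Lhx9 and Lmx1b in each library (x axis), with a black bar at the median of all protein-coding genes. Lmx1b is the highest in 8 of 9 libraries.

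Whether antibody or genotype changed the number of intervals around a gene was tested on intervals per 10000 of the list. The wt HOXA13 and wt HOXD13 lists had 3.08 ± 0.476 and 1.95 ± 1.13 (SD, n = 3 each) around Lhx2, 2.61 ± 0.460 and 2.59 ± 0.0778 around Lhx9, and 4.71 ± 0.509 and 5.87 ± 1.08 around Lmx1b. None of the differences passed an exact permutation test, two-sided (p = 0.3, 1 and 0.2, adjusted p = 0.45, 1 and 0.45 over 6 tests). The 542 HOXA13 lists had 3.09 ± 0.191, 3.08 ± 0.213 and 4.002 ± 0.237 (SD, n = 2), and their differences from wt HOXA13 had exact permutation p-values of 0.9, 0.3 and 0.3 (adjusted p = 1, 0.45 and 0.45). With these numbers of libraries the smallest p either test can give is 0.1. A p under 0.05 was thus out of reach, and these tests cannot tell whether the numbers differed.

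Fold enrichment at single sites was then compared with limma on log2 values centred on the median of each library, over all sites called in every list compared. Between wt HOXA13 and wt HOXD13, 13916 sites could be tested and 16 of them belonged to the members. None of these passed an adjusted p of 0.05, as did 0.00719% of all sites tested, and 2 of the 16 had an unadjusted p under 0.05 against 13.5% of all sites. Their differences, HOXA13 minus HOXD13, ran from -0.58 to 0.47 with a median of 0.16, beside -0.01 over all sites. The 2 sites were 34.9 kb downstream of Lmx1b (0.47, 95% interval 0.003 to 0.93, limma adjusted p = 0.37) and 141.4 kb upstream of it (-0.58, -1.11 to -0.04, adjusted p = 0.34). The second was -0.34 without the third wt HOXA13 library and -0.26 without centring, with limma adjusted p of 0.39 and 0.82, and the first was 0.37 without the first wt HOXA13 library (limma adjusted p = 0.75). The site named at each of these settings no longer had an unadjusted p under 0.05.

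At sites of each gene shown above the intervals of the difference between antibodies included 0. They were -0.69 to 0.28 at the site 60.9 kb upstream of Lmx1b, -0.07 to 0.75 at 114.7 kb downstream of it, -0.26 to 0.64 at 63.0 kb downstream of Lhx9 and -0.34 to 0.70 at 87.7 kb upstream of Lhx2. Without centring the median of all sites moved to 0.31, and 15 of the 16 member sites were then higher with HOXA13 against 10 with it. Without the third wt HOXA13 library 450 of all sites passed, of which 0 were member sites.

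Between wt HOXA13 and 542 HOXA13, 33 member sites were among 27075 tested. None passed an adjusted p of 0.05, where 0.00369% of all sites did, and 4 had an unadjusted p under 0.05, or 12.1%, against 13.4% of all sites. The median difference, wt minus 542, was -0.0005 for the members and 0.06 for all sites. Without centring the median over all sites was -0.40, and 4 of the 33 member sites were higher in wt against 16 with it, so the higher 542 values at single sites above are to be read against that shift.

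The site 135.2 kb upstream of Lhx9, in an intron of Dennd1b, had the largest difference of the 33 and was chosen after its values were seen. Its fold enrichment was 9.52, 8.24 and 4.17 in wt HOXA13 and 4.10 and 3.37 in 542 HOXA13. The lowest wt value, 4.17, was only just above the highest 542 value, 4.10. The log2 difference was 1.35 ± 0.244 (SE), with a limma adjusted p of 0.12. Without the third wt HOXA13 library it was 1.52 and passed (limma adjusted p = 6.4e-05), at a setting where 3611 of all sites passed. It did not pass without the first (1.32, limma adjusted p = 0.26) or the second wt HOXA13 library (1.19, 0.45). Nor did it pass without centring (0.89, limma adjusted p = 0.32) or with recovered pileups (1.66, 0.09). The wt HOXD13 lists had 3.78 and 5.59 there and none in the third, and the 542 HOXD13 list had 3.12.

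The other 3 sites with an unadjusted p under 0.05 were 76.8 kb upstream of Lmx1b (0.76, adjusted p = 0.24), 21.1 kb downstream of Lhx9 (0.70, adjusted p = 0.27) and 100.4 kb upstream of Lhx2 (-0.60, adjusted p = 0.32). At sites shown above the 95% intervals of wt minus 542 were -0.24 to 0.72 (Lmx1b, 60.9 kb upstream), -0.50 to 0.50 (Lmx1b, 114.7 kb downstream), -0.64 to 0.27 (Lhx9, 63.0 kb downstream) and -0.81 to 0.13 (Lhx2, 87.7 kb upstream).

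**Figure D5:**
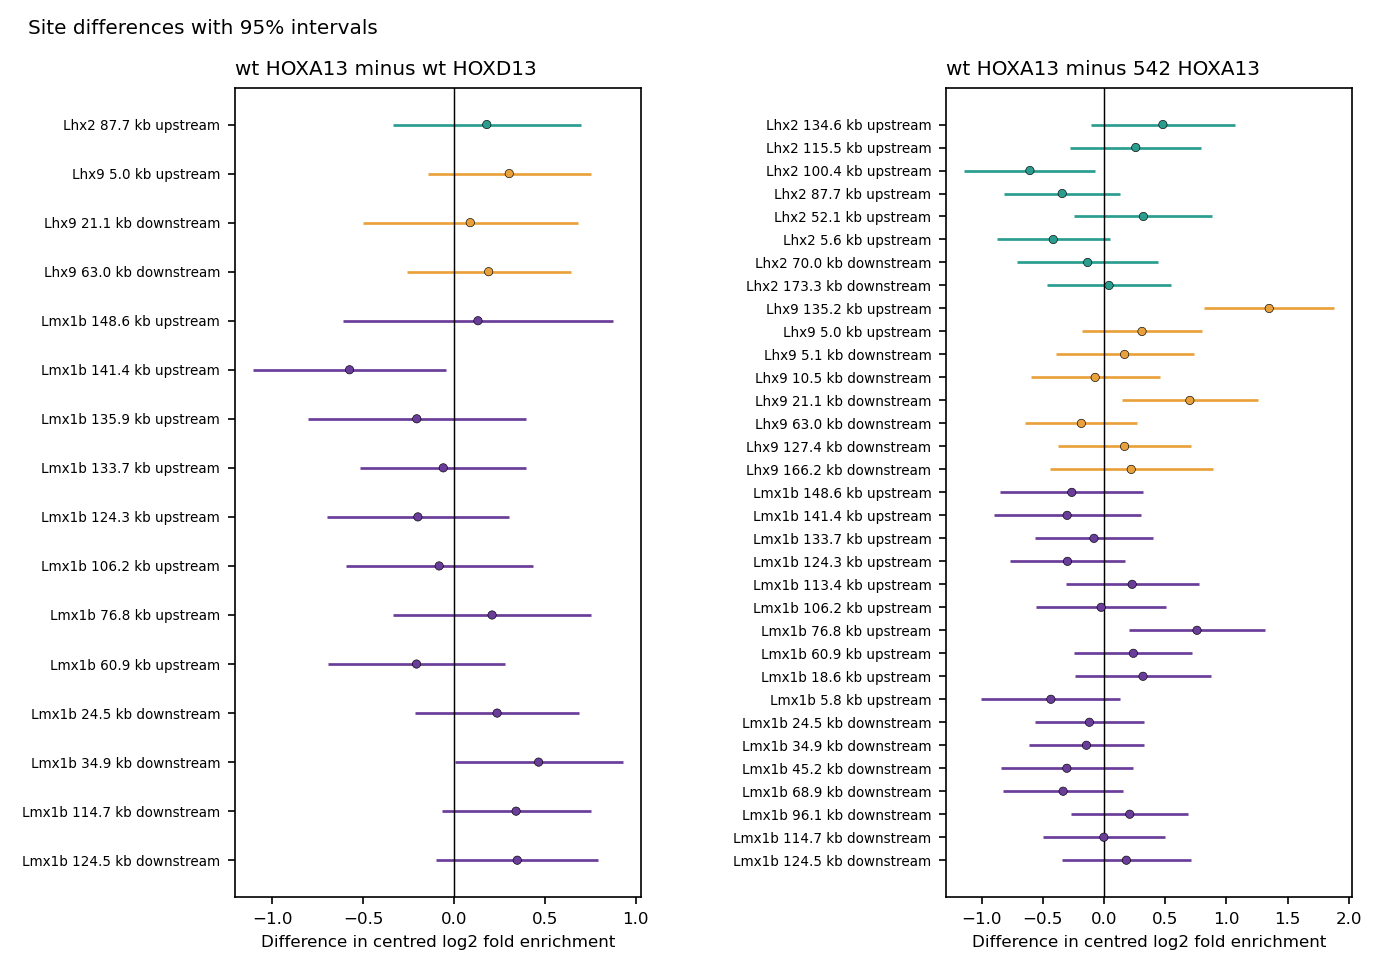
Difference in centred log2 fold enrichment (x axis) at each member site that could be tested, for wt HOXA13 minus wt HOXD13 (16 sites) and wt HOXA13 minus 542 HOXA13 (33 sites), with 95% intervals from limma. No site passes an adjusted p of 0.05, and the site 135.2 kb upstream of Lhx9 lies farthest from 0 at 1.35.

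The share of member sites with the HOX13 consensus was close to that of all sites. Within 50 bp centred on the main summit, 2 of the 14 member sites called in all 9 lists held it, or 14.3% (exact binomial 95% interval 1.78% to 42.8%), beside 15.9% of all 12410 such sites. These were the sites 63.0 kb downstream of Lhx9 and 114.7 kb downstream of Lmx1b, which share the word CCCATAAA. Among sites called in 1 list 5.56% of the 72 member sites and 6.396% of all sites held it. In a 200 bp window the counts for sites in all 9 lists were 5 of 14 and 36.4% of all. None of the 4 RefSeq promoter windows of the members (GRCm38.p6, 250 bases before to 50 after a start) held it, where 10.3% of all 32851 windows did.

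Other genes of the family and its partners were read the same way. Of 9 other LIM homeobox genes (Lhx1, Lhx3, Lhx4, Lhx5, Lhx6, Lhx8, Isl1, Isl2 and Lmx1a), none had a promoter interval in all 6 wt lists, 3 had none in any wt list, and 8 had a site called in all 9 lists in their landscape. Isl2, a motor neuron factor, had promoter intervals in 7 lists. Of 10 genes for LIM cofactors and LIM-only proteins, 4 had a promoter interval in all 9 lists, as had 20.4% of protein-coding genes: Ldb1, the obligate partner of these proteins, Ssbp2 and Ssbp3, which stabilise LDB1, and Lmo4, a LIM-only protein. Among 9 cofactor landscapes that could be compared, Ssbp4 had the most sites called in all 9 lists, 8, and Lmo4 had 7. The dorsoventral genes Wnt7a, the dorsal signal, and En1, which represses it ventrally, had promoter intervals in 3 lists and 1 list.

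The genes whose interval counts were most like each member over the 9 libraries, by the root mean square difference in intervals per 10000, were Iqgap2, Fhdc1 and Klhl29 for Lhx2 (0.281 to 0.380), Thap1, Btbd8 and Abraxas2 for Lhx9 (0.233 to 0.301), and Smg6, Hlcs and Thada for Lmx1b (0.362 to 0.433). Landscapes overlapping the member's own were left out.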

How the data were processed

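The CUT&RUN data consisted of 9 deposited peak lists, each from a single library. According to the study's methods, adapters were trimmed with Cutadapt, read pairs were mapped with bowtie2 (wt on mm10, 542 on the mutant genome), low mapping qualities and discordant pairs were removed, and peaks were called per library with MACS2 without a control, counting both read ends and keeping duplicates. The deposited fold enrichment is the ratio that MACS2 formed at each summit from pileup and local background. Deposited alongside were the −log10 p-value of a Poisson test, its −log10 q-value after adjustment, and a score made from the latter. Score and q were not used.

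Rows of 1 interval were joined, and its main summit was the row with the highest −log10 p. Pileups were recovered from fold enrichment and −log10 p and at least 99.9% of summits gave a whole number, with a tolerance of 0.01. Intervals of the 9 lists overlapping by at least 1 bp made a site, valued in each library by its highest fold enrichment. The labels only number the replicates, which the paper describes as separate pools, and p-values measure the spread between libraries. Promoter intervals lay within 1000 bp of a start site. Tests were exact permutation tests with Benjamini-Hochberg adjustment and limma with a mean-variance trend. On simulated data limma recovered 78% of sites changed by 1 on the log2 scale between antibodies (13916 sites) and 42% between genotypes (27075 sites). False calls numbered 12 and 3. The simulated noise was independent between libraries, unlike that of the real libraries, so these values do not give the power of the real comparisons. The stretch of chromosome 2 beyond the transgene did not enter genome-wide shares or genotype comparisons.

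The named sites were those at a start site, those in all 9 lists, and those in all 3 wt lists of 1 antibody only, at most 8 a landscape by median percentile of fold enrichment, and other sites are given to complete a count or as chosen later. Poisson and binomial intervals cover counting error only, and those from limma rest on the spread between libraries. The members and lists were chosen with earlier results of these data known. Coordinates are 1-based, annotation was GENCODE vM21 on GRCm38, the assembly of mm10, and promoter sequences were from RefSeq. Alternatives were other scalings, filters, flanks, windows, clustering of summits, left-out replicates and the replicate number as a block. Software was limma 3.58.1 in R 4.3.3, and Python 3.11.15 with pandas 2.3.3, pysam 0.24.0, matplotlib 3.10.9, numpy 2.4.6 and scipy 1.17.1.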

Additional observations from a re-analysis of the deposited data

How the results depend on the processing

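Member sites called in a single list had a median fold enrichment of 2.68, against 6.39 for those in all 9 lists, and the part of depth in this was not tested. The permutation tests on the number of intervals could not give a p under 0.1 at any setting. None could therefore pass 0.05 under any alternative, and the lack of a pass says nothing about a difference. Directions turned between settings. For Lhx9 between antibodies (HOXA13 minus HOXD13, 0.02 per 10000) the value was -0.40 with 50 kb flanks, -0.72 with 250 kb flanks and -0.21 with replicates 1 and 2 only. For Lmx1b (-1.16) it was 5.33 intervals as a count not divided by list size and 0 among the top 20000 intervals. Between genotypes (wt minus 542) Lhx2 (-0.01) moved to 0.11 with 50 kb flanks, 0.21 with 250 kb flanks, and 0.22 with replicates 1 and 2 only or with the replicate block, Lhx9 (-0.47) to 0.58 among the top 20000 and 0.48 at a fold enrichment of at least 5, and Lmx1b (0.71) to -3.17 as an undivided count. Leaving out 1 replicate gave -0.25 to 0.17 for Lhx9 between antibodies, with the sign turned without wt HOXA13 replicate 3 or wt HOXD13 replicate 1, and -0.25 to 0.22 for Lhx2 between genotypes, turned without wt HOXA13 replicate 3 or 542 HOXA13 replicate 1. Other differences kept their sign: Lmx1b between antibodies was -0.55 without wt HOXD13 replicate 1, Lhx2 between antibodies (1.14) was 1.79 without wt HOXD13 replicate 2, and Lhx9 between genotypes was -0.73 without wt HOXA13 replicate 3.

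In limma 1 of all sites passed between antibodies and 1 between genotypes. Between antibodies this was 9 with recovered pileups, 2 at a median fold enrichment of at least 5, 1074 with replicates 1 and 2 only, 599 with the replicate block, and 0 to 450 without 1 replicate. Between genotypes it was 0 with pileups, 0 without the trend, 0 at a median fold enrichment of at least 5, 3 without centring, 3611 with replicates 1 and 2 only, 4976 with the replicate block, and 0 to 3611 without 1 replicate. The highest counts without 1 replicate came from leaving out wt HOXA13 replicate 3. The cause of these counts was not tested. Between genotypes this setting is the same fit as replicates 1 and 2 only. Member sites passing stayed at 0 between antibodies, and between genotypes were 1 with replicates 1 and 2 only, 3 with the replicate block and 0 to 1 without 1 replicate. The site 135.2 kb upstream of Lhx9 (1.35) passed at 1.52 with replicates 1 and 2 only, the same fit as without wt HOXA13 replicate 3. It also passed at 1.52 with the replicate block, where that replicate has no 542 partner. These settings thus rest on the same 4 libraries. The difference between genotypes 114.7 kb downstream of Lmx1b (-0.0005) was 0.0124 with pileups, 0.0154 with clustered summits, 0.00784 at a median fold enrichment of at least 5, 0.13 with replicates 1 and 2 only and with the block, and -0.11 to 0.13 without 1 replicate. Same-numbered wt libraries of both antibodies deviated from their group means with correlations of -0.02, 0.23 and 0.54 over 13916 sites. Pairs of unlike number ran from -0.45 to 0.46. With the first and second libraries of the other antibody, the third wt HOXA13 library had -0.14 and -0.45. The third wt HOXD13 library had -0.42 and -0.39. Deviations within a group of 3 sum to 0, so these negative values follow in part from the 0.54. By that 0.54 the third libraries deviated alike across antibodies, which the main fit, unpaired, did not model. The unlike pair of wt HOXA13 replicate 1 and wt HOXD13 replicate 2 reached 0.46. Between genotypes same-numbered pairs gave 0.11 and others -0.11. This is a single value, since with 2 libraries in each group the deviations mirror each other.

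At a fold enrichment of at least 5 Lhx2 and Lhx9 had promoter intervals in 0 lists, merged sites were 15 for Lhx2, 11 for Lhx9 and 21 for Lmx1b, sites in all 9 lists were 0, 0 and 2, sites in all 6 wt lists 0, 0 and 3, and Lhx2 had 0 sites particular to HOXA13 by list. With main summits within 200 bp in place of overlap, sites in all 9 lists were 1 for Lhx9 and 7 for Lmx1b, and sites in all 3 wt HOXA13 and no wt HOXD13 list were 0 for Lhx2 and 1 for Lhx9. The core words ATAAA and GTAAA were within 50 bp at 57.1% of member sites in all 9 lists, beside 45.3% of all such sites. In an alternative chosen after seeing the data, the median share of intervals at least as high as the site 60.9 kb upstream of Lmx1b was 0.167% by recovered pileup and 5.73% by fold enrichment.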
